A study of Mus musculus with 10 samples.

Results

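The respiratory chain genes of splenic B cells were compared between mice with liver fibrosis and control mice. Members were the protein-coding genes in the deposited count table whose symbols begin with Nduf, Uqcr, Cox4 to Cox8, Atp5 or mt-, together with Sdha, Sdhb, Sdhc and Sdhd. This rule found 107 of the 54532 genes in the table. The 107 comprised 13 genes of the mitochondrial genome, 84 nuclear genes for structural subunits of complexes I to V, and 10 other nuclear genes. Those 10 were 8 complex I assembly factors (Ndufaf genes), the supercomplex factor Cox7a2l, and Atp5s.

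RNA sequencing with poly-T selection of mRNA was performed on 10 libraries labelled splenic B cells, 5 per group. The fibrosis libraries came from fibrotic mice that had received carbon tetrachloride (CCl4), a liver toxin, by intraperitoneal injection for 4 weeks. The control libraries came from wildtype mice. The labels do not state strain, sex, age, any vehicle given to controls or how the B cells were isolated. Nothing says that each library came from a separate mouse, so p-values measure only library-to-library spread, which may be technical. Values listed for a group are in the order of libraries 1 to 5.

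The respiratory chain passes electrons from NADH through complex I, or from succinate through complex II, to ubiquinone, then through complex III and cytochrome c to complex IV, which reduces oxygen. Complexes I, III and IV pump protons across the inner mitochondrial membrane, and complex V, the ATP synthase, uses the gradient to make ATP. All complexes except II mix subunits transcribed inside mitochondria with subunits transcribed in the nucleus, and B cells raise their use of the chain when they are activated.

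Total counts per library were 13439100 to 17069393 in fibrosis and 15912080 to 17954551 in control. All 9 listed genes that define B cells (such as Cd79a, Ms4a1 and Pax5) were detected, and their summed level in CPM (the usual depth-normalised count, here on scaled library sizes) was 6788 to 9770 in fibrosis and 6403 to 7318 in control. Of these 9 genes 4 rose, beside 18.6% of all tested genes, and all 9 rose without fibrosis 4 and 5, beside 18.4%. Their summed level was 6798 and 6788 CPM in fibrosis 4 and 5, against 8802 to 9770 CPM in fibrosis 1 to 3. Fibrosis libraries 4 and 5 stood apart from the rest of their group. Their summed levels of 11 neutrophil genes were 3902 and 4815 CPM, against 435 to 1612 CPM in fibrosis 1 to 3 and 731 to 1916 CPM in control. The mitochondrial ribosomal RNAs reached 2644 and 2125 CPM in them and at most 832 CPM in any other library. A fit without these 2 libraries, a choice made after seeing the data, is therefore given beside the fit of all libraries. Levels from bulk RNA cannot tell fewer cells of a type apart from less RNA per cell.

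The mitochondrially encoded genes and the nuclear genes of the same complexes differed from control in different ways. In edgeR's quasi-likelihood test across 14283 genes, 11 of the 13 mitochondrially encoded genes were higher in fibrosis at an adjusted p under 0.05 and none was lower, as with DESeq2 and limma voom; none was lower at an unadjusted p under 0.05 either. Of all genes tested, 18.6% were called higher and 17.2% lower. The median log2 fold change of the 13 genes was 0.74, beside 0.05 over all tested genes. Of the 84 nuclear subunit genes 77 passed the filter on low counts, and of these 3 were higher, 8 lower and 66 not called, with a median log2 fold change of 0.01. Both nuclear shares, 3 and 8 of 77, lay below those of all genes. Without fibrosis 4 and 5, 10 mitochondrial genes were called higher, all among the 11, with a median of 0.50. The nuclear subunits then gave 2 higher and 31 lower calls of 78 tested, including all 8 of the earlier lower calls, with a median of -0.20. In that comparison 18.4% of all genes were called higher and 18.8% lower. A correction for each library's trend with GC and gene length, added after seeing the data, left 7 mitochondrial genes higher with a median of 0.27. It ended the calls of mt-Nd2, mt-Co3, mt-Atp6 and mt-Atp8 and turned the uncalled mt-Nd3 to -0.31. Scaling by library size alone called 12.4% of all genes higher and 23.1% lower, and gave 26 lower calls among the nuclear subunits.

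**Figure D1:**
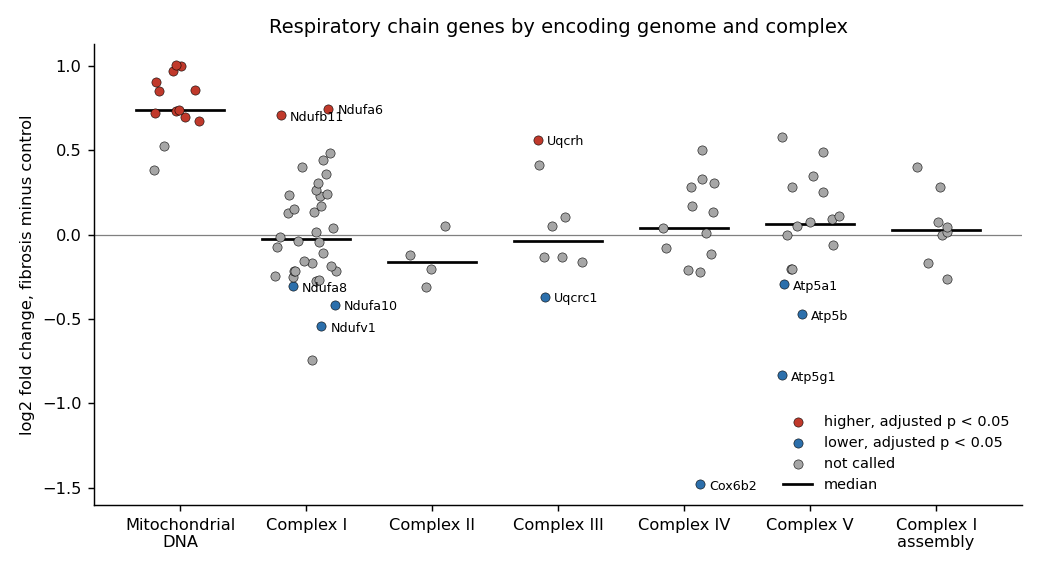
Fitted log2 fold change (fibrosis minus control, vertical axis) of each tested member except Cox7a2l and Atp5s, grouped by encoding genome and complex on the horizontal axis; each point is a gene, colour marks the edgeR call at an adjusted p under 0.05 and bars are medians. All 13 mitochondrially encoded genes lie above 0 with a median of 0.74, and the medians of nuclear complexes I to V lie between -0.16 and 0.06.

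The 13 mitochondrially encoded genes held 1.05%, 1.28%, 1.56%, 1.74% and 1.83% of all counts in fibrosis 1 to 5. In control 1 to 5 they held 0.958%, 0.855%, 1.11%, 0.965% and 0.944%. Fibrosis 1 lay below control 3, and the other 4 fibrosis libraries lay above all controls. The group means were 1.49% ± 0.328 in fibrosis and 0.966% ± 0.0905 in control (SD, n = 5 each), a ratio of 1.54 that became 1.34 without fibrosis 4 and 5.

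The nuclear subunit genes held 0.924%, 0.845%, 0.836%, 1.17% and 1.04% of counts in fibrosis 1 to 5, and 1.13%, 1.11%, 0.980%, 1.11% and 1.08% in control 1 to 5. Fibrosis 1 to 3 lay below every control, fibrosis 4 above every control and fibrosis 5 within the control range. The means were 0.963% ± 0.141 and 1.08% ± 0.0588 (SD, n = 5 each), a ratio of 0.891 that became 0.804 without fibrosis 4 and 5.

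The quotient of mitochondrial to nuclear counts within one library does not depend on how libraries are scaled. It was 1.13, 1.51, 1.86, 1.49 and 1.76 in fibrosis 1 to 5 and 0.850, 0.769, 1.13, 0.872 and 0.875 in control 1 to 5. The lowest fibrosis library (1.132) and the highest control (1.130) nearly met, and the rest of the groups stood clear of each other. The mean quotient was 1.55 ± 0.283 in fibrosis and 0.899 ± 0.136 in control (SD, n = 5 each), a ratio of 1.72 with all libraries and 1.67 without fibrosis 4 and 5. Within complexes the mean quotient was 1.96 ± 0.441 against 1.17 ± 0.199 for complex I, 2.04 ± 0.389 against 1.22 ± 0.174 for complex III, and 4.56 ± 0.752 against 2.89 ± 0.519 for complex IV (fibrosis against control, SD, n = 5 each). It was 0.00564 ± 0.00113 against 0.00273 ± 0.000363 for complex V, whose mitochondrial genes mt-Atp6 and mt-Atp8 had few counts. The level of mt-Atp6 is also uncertain because of a nuclear copy described below. Fibrosis 1 lay below control 3 for complex I (1.383 against 1.522), complex III (1.504 against 1.53) and complex IV (3.549 against 3.734). The groups thus overlapped for these complexes, although their other libraries stood clear of each other. For complex V all fibrosis libraries lay above all controls. Most mitochondrial counts of complex IV came from mt-Co1, with 645176 in fibrosis beside 3825 for mt-Co2 and 2364 for mt-Co3. These quotients and shares are descriptions of the member lists and carry no test.

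**Figure D2:**
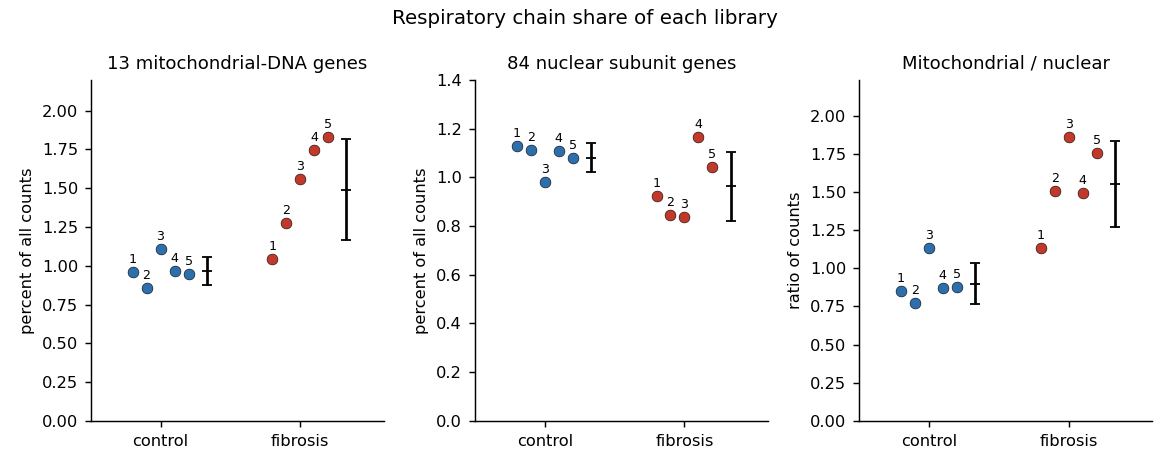
Percent of all counts in the 13 mitochondrially encoded genes (left), percent in the 84 nuclear subunit genes (middle) and the quotient of the counts (right), for each numbered library, with mean and SD (n = 5) beside each group; all axes start at 0. The mitochondrial share reaches 1.83% in fibrosis against at most 1.11% in control, and the nuclear share of fibrosis 1 to 3 lies below every control.

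Among the mitochondrial genes, mt-Co1 encodes the catalytic core of complex IV and had the highest level per length, with deposited FPKM (fragment counts scaled by gene length and depth) of 5374 in fibrosis and 3319 in control. Its level was 6164, 7398, 7911, 10400 and 10470 CPM in fibrosis 1 to 5, against 5107, 4411, 5682, 5124 and 5358 CPM in control 1 to 5. Every fibrosis library exceeded every control. The log2 fold change was 0.72 ± 0.146 (SE, edgeR adjusted p = 0.00196), and 0.49 without fibrosis 4 and 5 (adjusted p = 0.00238).

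The gene mt-Cytb encodes cytochrome b, the only mitochondrially encoded subunit of complex III. It was at 1510, 1909, 2165, 2432 and 2700 CPM in fibrosis 1 to 5, against 1336, 1216, 1508, 1309 and 1246 CPM in control 1 to 5. The groups did not overlap, although fibrosis 1 and control 3 were close. Its log2 fold change was 0.70 ± 0.141 (SE, edgeR adjusted p = 0.00196), and 0.50 without fibrosis 4 and 5 (adjusted p = 0.00385).

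Complex I takes 7 subunits from the mitochondrial genome, which form its membrane arm. The first in genome order, mt-Nd1, was at 1112, 1353, 1684, 2190 and 2395 CPM in fibrosis, against 1036, 905, 1094, 965 and 847 CPM in control, with no overlap and a log2 fold change of 0.85 ± 0.185 (SE, edgeR adjusted p = 0.00324). The value without fibrosis 4 and 5 was 0.52 (adjusted p = 0.00611). The mt-Nd2 gene rose by 0.68 on the log2 scale, mt-Nd4 by 0.74 and mt-Nd5 by 0.73, each with an edgeR adjusted p under 0.004, and without fibrosis 4 and 5 by 0.46, 0.47 and 0.65, all still called. Fibrosis libraries overlapped controls for mt-Nd4 and mt-Nd5 and not for mt-Nd2. The gene mt-Nd6, the only member on the opposite strand of the mitochondrial genome, was at 214, 262, 350, 399 and 450 CPM in fibrosis, against 167, 138, 203, 192 and 137 CPM in control. All 5 fibrosis libraries were above all controls, and its log2 fold change of 1.00 ± 0.194 (SE, edgeR adjusted p = 0.00167) was close to the largest among the 13; it was 0.72 without fibrosis 4 and 5 (adjusted p = 0.00725). A short part of mt-Nd6 (chrMT:13552-14070) overlaps the end of mt-Nd5 (at 13565) on the other strand. The labels do not state whether reads were counted by strand, so reads from that overlap cannot be told apart. If strand was ignored, reads from the opposite strand anywhere along mt-Nd6 would also count for it. The 2 mitochondrial genes without a call were mt-Nd3 (log2 fold change 0.38, edgeR adjusted p = 0.192) and mt-Nd4l (0.53, adjusted p = 0.092). Their log2 fold changes without fibrosis 4 and 5 were 0.0056 (edgeR adjusted p = 0.983) and 0.35 (adjusted p = 0.296).

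Several mitochondrial genes have near-identical copies in the nuclear genome, and reads from gene and copy can then be confused. On chromosome 1 (GRCm38, minus strand), 7 annotated pseudogenes lie between chr1:24611535-24616197 and copy the mitochondrial stretch from mt-Co1 to mt-Nd4. The copies Gm28661 of mt-Co2, Gm10925 of mt-Atp6, Gm28437 of mt-Co3 and Gm10222 of mt-Nd4l were 100% identical to the mitochondrial gene over 681, 678, 783 and 294 aligned bases. The copy of mt-Nd3, Gm28438, was identical at 344 of 345 bases, that of mt-Nd4, Gm28439, at 876 of 876, and that of part of mt-Co1, Gm29216, at 482 of 483. The first 90 bases of mt-Co2 (chrMT:7013-7102, plus strand) and of its copy (chr1:24615476-24615565, minus strand), and a stretch of mt-Co1 (chrMT:6390-6479, plus strand) with its copy (chr1:24616099-24616188, minus strand), are shown because they carry this identity; sequences are from GENCODE transcripts of GRCm38 and the capitals mark the only base at which mt-Co1 and its copy differ in the aligned stretch.
mt-Co2: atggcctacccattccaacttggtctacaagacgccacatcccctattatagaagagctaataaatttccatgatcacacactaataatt
Gm28661: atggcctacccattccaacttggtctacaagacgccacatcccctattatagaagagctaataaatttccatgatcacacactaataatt
mt-Co1: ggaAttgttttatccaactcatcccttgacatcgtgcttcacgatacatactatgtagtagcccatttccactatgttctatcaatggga
Gm29216: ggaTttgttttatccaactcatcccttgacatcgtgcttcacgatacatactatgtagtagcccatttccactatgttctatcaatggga

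Levels of the mitochondrial genes differed along the genome with these copies. They are given as CPM per kilobase on total counts, without the scaling used for CPM elsewhere. The 5 genes in which over 90% of 100-base windows have an exact copy in another annotated transcript (mt-Co2, mt-Atp6, mt-Co3, mt-Nd3 and mt-Nd4l) had mean control levels of 5.01 to 37.9 CPM per kilobase. The 5 genes with copies for under 10% of windows (mt-Nd1, mt-Nd2, mt-Nd5, mt-Nd6 and mt-Cytb) had 334 to 1199 CPM per kilobase. The partly copied mt-Co1 (30.8% of windows) and mt-Nd4 (60.8%) were at 3448 and 354 CPM per kilobase. The short gene mt-Atp8, which overlaps mt-Atp6 and lies among the copied genes, was at 3.78. None of its windows had a copy in an annotated transcript. The search did not cover the unannotated bases between the chromosome 1 pseudogenes Gm10925 and Gm28661, so mt-Atp8 cannot be taken as uncopied. The levels of the copied genes, and possibly that of mt-Atp8, are therefore uncertain, and the labels do not state how reads with several matches were counted.

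**Figure D3:**
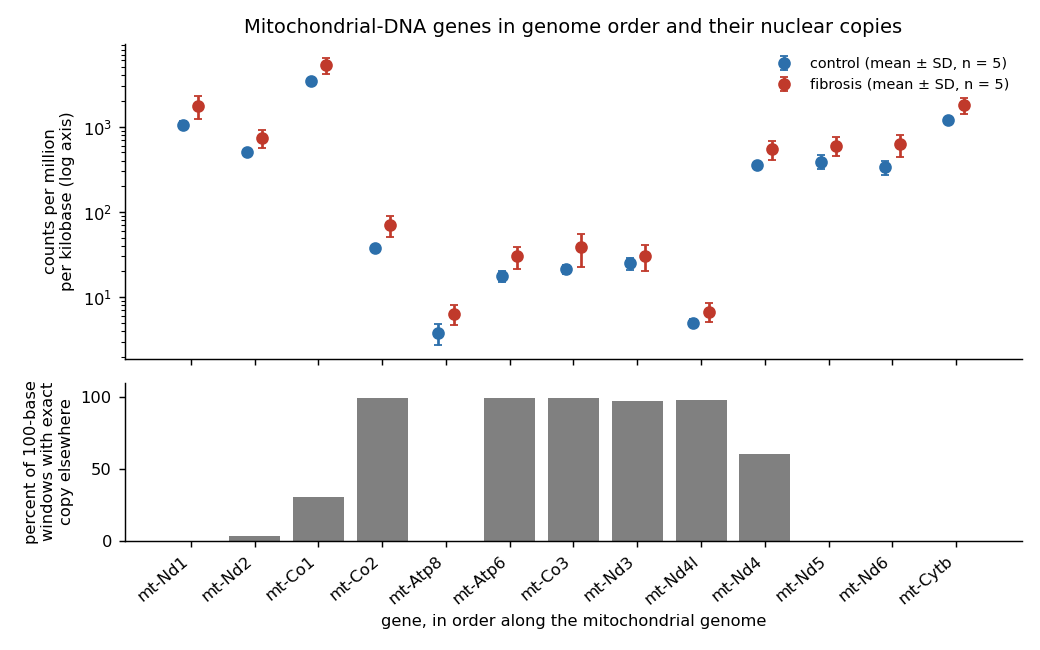
Upper panel: level per length (CPM per kilobase on unscaled total counts, log axis) of the 13 mitochondrially encoded genes in genome order, mean ± SD of 5 control (blue) and 5 fibrosis (red) libraries. Lower panel: percent of each gene's 100-base windows with an exact copy in another annotated transcript; the 5 genes above 90% sit at 5.01 to 37.9 in control.

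Log2 fold changes with all libraries were positive in copied and uncopied genes. The copied mt-Co2, a copper-binding complex IV subunit, was at 30.2, 65.7, 39.1, 61.9 and 54.0 CPM in fibrosis, against 27.5, 22.7, 24.1, 27.8 and 22.8 CPM in control, all fibrosis libraries above all controls (log2 fold change 1.00 ± 0.185 SE, edgeR adjusted p = 0.00119; 0.85 without fibrosis 4 and 5). The complex IV gene mt-Co3 rose by 0.97 and the proton channel gene mt-Atp6 of complex V by 0.90 on the log2 scale, with fibrosis 4 and 5 the highest libraries for both. Without those libraries the values were 0.44 (edgeR adjusted p = 0.0144) and 0.55 (adjusted p = 0.0092). The 5 genes with few copied windows had log2 fold changes from 0.68 (mt-Nd2) to 1.00 (mt-Nd6), and from 0.46 (mt-Nd2) to 0.72 (mt-Nd6) without fibrosis 4 and 5. The gene mt-Atp8 rested on 11 to 28 counts per library. Its log2 fold change of 0.86 (edgeR adjusted p = 0.0282) lost its call without fibrosis 4 and 5 (adjusted p = 0.060), and its adjusted p ranged up to 0.707 over all alternatives.

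The mitochondrial ribosomal RNAs mt-Rnr1 and mt-Rnr2, which carry no protein code and are not members, were far higher in fibrosis 4 and 5 than in the other libraries. In fibrosis 1 to 5, mt-Rnr2 was at 386, 516, 540, 1789 and 1426 CPM, and in control at 291 to 460 CPM. Its log2 fold change was 1.28 (edgeR adjusted p = 0.0276) with all libraries and 0.33 (adjusted p = 0.113) without fibrosis 4 and 5. That of mt-Rnr1 was 1.05 (adjusted p = 0.0378) and 0.23 (adjusted p = 0.164). Selection for poly-A tails precedes these libraries, and its efficiency in each was not measured.

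Complex I also has 36 nuclear structural genes, all of which were tested. With all libraries 2 were higher, 3 lower and 31 not called, both shares below the 18.6% and 17.2% of all genes. Without fibrosis 4 and 5, 2 were higher and 14 lower, beside 18.4% and 18.8% of all genes. The core subunit Ndufv1 binds NADH and flavin mononucleotide at the entry of electrons. It was at 119, 105, 93.6, 112 and 89.8 CPM in fibrosis, against 162, 152, 134, 156 and 152 CPM in control. All fibrosis libraries were below all controls, with a log2 fold change of -0.54 ± 0.0943 (SE, edgeR adjusted p = 0.00072), and -0.51 without fibrosis 4 and 5. With all libraries it was the only one of the 7 nuclear core subunits called, and without those libraries Ndufs1, named after its value was seen, was also lower (-0.29, adjusted p = 0.0398).

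Among the 29 accessory subunits, Ndufa10 was at 95.3, 87.8, 76.6, 88.1 and 75.5 CPM in fibrosis, against 121, 115, 99.2, 116 and 115 CPM in control, again without overlap (log2 fold change -0.42 ± 0.0891 SE, edgeR adjusted p = 0.00274; -0.38 without fibrosis 4 and 5). The accessory gene Ndufa8 fell by 0.31 on the log2 scale (edgeR adjusted p = 0.0188) with overlapping groups. The accessory genes Ndufa6 and Ndufb11 were higher. Ndufa6 was at 91.5, 87.2, 87.1, 156 and 157 CPM in fibrosis, against 63.8 to 74.8 CPM in control. Fibrosis 4 and 5 were far above the other 3, yet all 5 exceeded every control, and the log2 fold change of 0.75 (edgeR adjusted p = 0.00567) became 0.37 (adjusted p = 0.00219) without them. Ndufb11 was also highest in fibrosis 4 and 5, at 252 and 242 CPM, and was at 132 to 141 CPM in fibrosis 1 to 3, against 99.9 to 121 CPM in control, and log2 fold changes of 0.71 and, without those libraries, 0.31. Its gene overlaps Rbm10, so reads shared by both cannot be told apart.

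The accessory gene with the lowest log2 fold change, Ndufa12, was chosen for mention after its values were seen. It was at 8.26 to 18.7 CPM in fibrosis, against 12.7 to 40.7 CPM in control and was not called (log2 fold change -0.74, edgeR adjusted p = 0.0951). Control 1 was the highest at 40.7 CPM, and the other 4 controls ran from 12.7 to 23.0 CPM. None of the 8 Ndufaf assembly factors, which help build complex I without remaining in it, was called by edgeR (log2 fold changes -0.26 to 0.40). At an unadjusted p under 0.05 1 was higher and 1 lower, DESeq2 called none, and limma voom called 1 lower. Without fibrosis 4 and 5, Ndufaf1 (-0.36, edgeR adjusted p = 0.025) and Ndufaf7 (-0.34, adjusted p = 0.0172) were called lower.

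Complex II, succinate dehydrogenase, is wholly encoded in the nucleus and also works in the tricarboxylic acid cycle. None of its 4 genes was called by edgeR with all libraries, 1 was lower at an unadjusted p under 0.05, and DESeq2 called 1 and limma voom 2 lower. The flavoprotein gene Sdha had a log2 fold change of -0.12 (edgeR adjusted p = 0.209), the iron-sulfur subunit gene Sdhb 0.05 (0.742), and the membrane anchor genes Sdhc -0.21 (0.171) and Sdhd -0.31 (0.0632). Sdhd was at 95.6, 84.2, 82.7, 132 and 111 CPM in fibrosis, against 132, 129, 111, 123 and 131 CPM in control. Fibrosis 1 to 3 lay well below all controls, fibrosis 5 just below the lowest control, and fibrosis 4 among the controls. Without fibrosis 4 and 5 both anchors were called lower, Sdhc at -0.35 (edgeR adjusted p = 0.0122) and Sdhd at -0.51 (adjusted p = 0.000593), whereas Sdha (-0.09) and Sdhb (-0.08) were not.

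Complex III had 8 nuclear members, of which 1 was higher and 1 lower, beside 18.6% and 17.2% of all genes. The core protein gene Uqcrc1 was at 306, 285, 244, 267 and 243 CPM in fibrosis, against 360, 360, 314, 363 and 340 CPM in control. No fibrosis library reached the lowest control, and the log2 fold change was -0.37 ± 0.090 (SE, edgeR adjusted p = 0.00614), and -0.31 without fibrosis 4 and 5. The hinge protein gene Uqcrh, whose product lies at the docking site of cytochrome c1, was at 168, 160, 149, 284 and 265 CPM in fibrosis, against 129 to 148 CPM in control. All fibrosis libraries were above all controls, by little in fibrosis 3. Its log2 fold change of 0.56 (edgeR adjusted p = 0.0228) became 0.20 (adjusted p = 0.0645) without fibrosis 4 and 5, and leaving out fibrosis 5 alone also ended the call (0.45, adjusted p = 0.0559), as did leaving out control 3 or control 5.

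The remaining complex III genes were not called. Their log2 fold changes were -0.17 for the Rieske iron-sulfur protein gene Uqcrfs1, -0.13 for the core protein gene Uqcrc2, -0.13 for Uqcr11, 0.05 for Uqcr10, 0.11 for Uqcrq and 0.41 for Uqcrb. In fibrosis Uqcrb was at 32.0, 35.5, 34.1, 68.0 and 62.8 CPM, beside 32.1 to 38.6 CPM in control. Fibrosis 4 and 5 lay far above the control range and the other 3 within it or at its lower edge. Without fibrosis 4 and 5 Uqcrfs1, Uqcrc2, Uqcr11 and Uqcrq were called lower, at -0.29, -0.20, -0.48 and -0.28, and the log2 fold change of Uqcrb was -0.04. Outside the name rule, the cytochrome c1 gene Cyc1 fell by 0.40 on the log2 scale (edgeR adjusted p = 0.00351), and the cytochrome c gene Cycs was not called (0.06, adjusted p = 0.826). Both were lower without fibrosis 4 and 5, Cyc1 at -0.45 and Cycs at -0.29 (adjusted p = 0.0157).

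Complex IV, cytochrome c oxidase, had 19 nuclear genes in the table, of which 13 were tested. Of the 13, 0 were called higher and 1 lower, beside 18.6% and 17.2% of all genes. Several complex IV subunits exist as paralogs with different tissue use. The ubiquitous forms were abundant: mean control FPKM was 274 for Cox4i1, 479 for Cox6a1, 170 for Cox6b1, 75.7 for Cox7a2 and 439 for Cox8a. Their tissue-restricted partners were low. Cox4i2, a form known from lung, had 44 counts in all fibrosis libraries and 27 in all controls, and Cox7a1, the heart and muscle form, had 36 and 40, both below the filter. The muscle form Cox8b, the testis forms Cox7b2 and Cox8c, and a second table entry for Atp5o had 0 counts in all 10 libraries. The heart and muscle form Cox6a2 was tested, averaged 3.54 ± 1.94 CPM in the fibrosis libraries against 3.72 ± 0.98 in the controls (SD, n = 5 each), and was not called. Its gene overlaps Itgad.

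With all libraries the only nuclear complex IV gene called was Cox6b2, a form of subunit 6B best known from testis. It was at 8.86, 5.54, 6.64, 16.8 and 5.40 CPM in fibrosis, against 24.8, 25.9, 19.6, 24.8 and 24.7 CPM in control. All fibrosis libraries were below all controls, with fibrosis 4 closest to them. The log2 fold change of -1.48 ± 0.271 (SE, edgeR adjusted p = 0.00125) was the lowest among all tested members, and it was -1.76 without fibrosis 4 and 5. In that comparison 5 of 14 tested nuclear complex IV genes were lower, beside 18.8% of all genes. These were Cox6b2, Cox6b1, Cox6a1, Cox5a (-0.29) and Cox5b (-0.42), the last pair named after their values were seen. The ubiquitous paralog Cox6b1 was at 108, 99.2, 90.8, 163 and 146 CPM in fibrosis, against 105 to 126 CPM in control. Its log2 fold change was 0.01 (edgeR adjusted p = 0.964) with all libraries and -0.27 (adjusted p = 0.0283) without fibrosis 4 and 5, the sign turning with those 2 libraries. Cox6a1 had log2 fold changes of -0.21 with all libraries (adjusted p = 0.188) and -0.34 without them (adjusted p = 0.0224). Cox4i1, Cox7a2, Cox8a and Ndufa4, a complex IV subunit despite its name, were not called in either comparison. The paralog Ndufa4l2, known as a hypoxia-induced form, had 3 counts in fibrosis and 10 in control.

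Cox7a2l, a factor that joins complexes III and IV into supercomplexes, was higher than control. It was at 366, 337, 299, 430 and 417 CPM in fibrosis, against 253, 241, 228, 269 and 225 CPM in control. All fibrosis libraries exceeded all controls. The log2 fold change was 0.60 ± 0.108 (SE, edgeR adjusted p = 0.000913), and 0.47 (adjusted p = 0.0016) without fibrosis 4 and 5.

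Complex V had 3 lower calls among 16 tested nuclear genes, a share near the 17.2% of all tested genes called lower. Without fibrosis 4 and 5 it had 5, beside 18.8% of all genes. With all libraries none of the 16 was called higher by edgeR, DESeq2 or limma voom, and 2 were higher at an unadjusted p under 0.05 in edgeR. The genes Atp5g1, Atp5g2 and Atp5g3 encode the same mature c subunit, which forms the rotating ring in the membrane. Atp5g1 was at 69.2, 62.5, 51.8, 72.3 and 52.4 CPM in fibrosis, against 112, 107, 102, 120 and 109 CPM in control. Its groups were widely separated, and the log2 fold change of -0.83 ± 0.105 (SE, edgeR adjusted p = 8.07e-05) was -0.84 without fibrosis 4 and 5. Its paralogs were not called with all libraries: Atp5g2, at 189 to 271 CPM in fibrosis, against 172 to 211 CPM in control, had a log2 fold change of 0.28 (edgeR adjusted p = 0.0675). Atp5g3, at 154 to 245 CPM in fibrosis, against 190 to 235 CPM in control, had -0.21 (adjusted p = 0.205) with all libraries and -0.38 (adjusted p = 0.00529) without fibrosis 4 and 5. Per length, mean control FPKM was 22.4 for Atp5g1, 113 for Atp5g2 and 99.7 for Atp5g3, on exon lengths of 4912, 1675 and 2181 bases. Mean control CPM, which does not use length, was 110, 189 and 218, a smaller gap. By either measure Atp5g1, called lower in both comparisons, had the lowest level. Atp5g3, called lower without fibrosis 4 and 5 but not with all libraries, had a level closer to that of Atp5g2.

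The catalytic head of the ATP synthase alternates alpha subunits, encoded by Atp5a1, and beta subunits, encoded by Atp5b. In fibrosis 1 to 5, Atp5b was at 1108, 1020, 925, 1105 and 901 CPM, and in control 1 to 5 at 1484, 1462, 1260, 1360 and 1451 CPM. The groups did not overlap and the log2 fold change was -0.47 ± 0.0941 (SE, edgeR adjusted p = 0.00179), and -0.45 without fibrosis 4 and 5. Atp5a1 was at 934, 842, 773, 939 and 842 CPM in fibrosis, against 1105, 1084, 972, 1063 and 1085 CPM in control, also without overlap (-0.29 ± 0.087 SE, adjusted p = 0.0182; -0.31 without fibrosis 4 and 5). At the other end, the small subunit gene Atp5mpl, named after its values were seen, had the highest log2 fold change of the complex (0.58) without a call (edgeR adjusted p = 0.111), and its log2 fold change without fibrosis 4 and 5 was -0.02.

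Across the 100 tested members, 11 had all fibrosis libraries above all controls and 7 had all below. Among all tested genes 11.4% were separated upward and 14.0% downward. Of the 11, 7 were mitochondrially encoded, 3 were the nuclear subunit genes Ndufa6, Ndufb11 and Uqcrh, and the other was Cox7a2l. The 7 separated downward were Ndufv1, Ndufa10, Uqcrc1, Cox6b2, Atp5a1, Atp5b and Atp5g1. Reads of 22 tested members could be shared with an overlapping gene that had at least 10% of their counts.

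The median level of the nuclear subunit genes relative to the control mean, on the log2(CPM + 0.5) scale, was -0.12, -0.21, -0.30, 0.41 and 0.20 in fibrosis 1 to 5. In control 1 to 5 it was 0.09, 0.04, -0.17, 0.06 and -0.02. Fibrosis 2 and 3 thus lay below all controls, fibrosis 1 just above the lowest, control 3, and fibrosis 4 and 5 above all controls. Nuclear complexes I, III, IV and V each lay below 0 in fibrosis 1 to 3 and above 0 in fibrosis 4 and 5, and complex II was at 0.10 and -0.16 in fibrosis 4 and 5. The mitochondrially encoded genes were at 0.20, 0.53, 0.71, 1.02 and 1.03 in fibrosis and -0.16 to 0.12 in control. The mitochondrial median was above the nuclear median in each fibrosis library, and also in control 3 (0.12 against -0.17), where the gap was close to that of fibrosis 1.

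**Figure D4:**
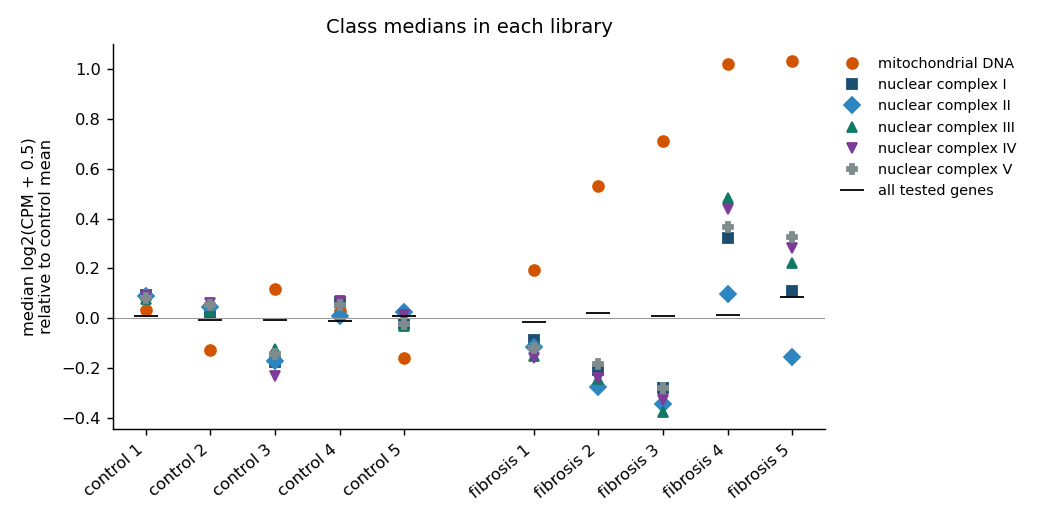
Median log2(CPM + 0.5) of each class relative to its genes' control mean (vertical axis) in each of the 10 libraries (horizontal axis); symbols are classes and dashes all tested genes. Nuclear complexes I to V lie below 0 in fibrosis 1 to 3 and, except complex II in fibrosis 5, above 0 in fibrosis 4 and 5, and the mitochondrial class lies above them in each fibrosis library.

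The nuclear subunit genes within the fibrosis group differed by coding length. They were divided at the median of their longest coding sequences, 423 bases, into 39 short genes (156 to 423 bases) and 38 long genes (429 to 2181 bases). Short genes had median relative levels of -0.12, -0.21, -0.27, 0.59 and 0.46 in fibrosis 1 to 5, and long genes -0.12, -0.25, -0.34, 0.16 and -0.05. Both lengths lay together in fibrosis 1 to 3 and apart in fibrosis 4 and 5. The 664 other tested protein-coding genes of at most 423 bases were at 0.39 and 0.38 in fibrosis 4 and 5 and at -0.04 to 0.06 in fibrosis 1 to 3, so the gap between lengths was shared with genes outside the respiratory chain. Of the 8 lower calls 6 were long genes, and of the 3 higher calls 2 were short. Spearman's rho between log2 fold change and coding length over the 77 genes was -0.46, and -0.15 without fibrosis 4 and 5, as a description, since all points share the same libraries.

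**Figure D5:**
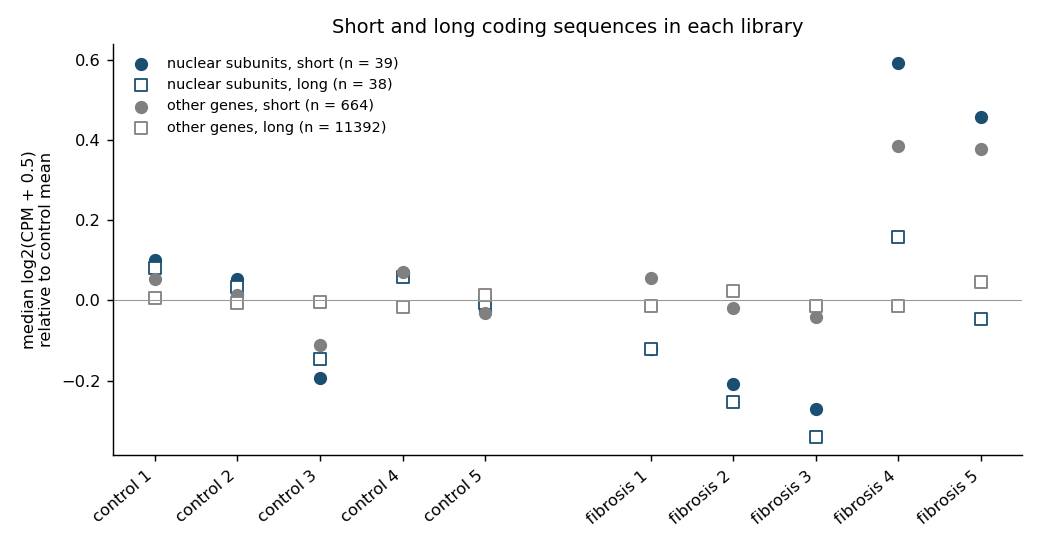
Median log2(CPM + 0.5) relative to the control mean (vertical axis) in each library (horizontal axis) for nuclear subunit genes (blue) and other tested protein-coding genes (grey), with filled circles for coding sequences of at most 423 bases and open squares for longer ones. In fibrosis 4 and 5 short genes reach 0.59 and 0.46 among subunits and 0.39 and 0.38 among other genes.

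Nuclear respiratory chain promoters are known for binding sites of NRF1, of ETS factors such as GABP (NRF2), and of YY1. RefSeq promoter windows (GRCm38.p6, 250 bases before to 50 bases after the start) were matched by symbol for 63 of the 77 tested nuclear subunit genes, giving 68 windows, and were searched on both strands. The NRF1 motif (GCGC, any 2 bases, GCGC) was in 29.4% of the 68 windows and in 6.23% of all 32851 windows. The ETS motif CCGGAAG was in 23.5% and 8.86%, and the YY1 motif AANATGGCG in 14.7% and 2.38%. The 68 windows are of tested genes, whereas the 32851 are of 27025 genes, more than the 14283 tested. These shares therefore do not compare the subunits with other expressed genes. Among the called genes, 2 of 7 matched lower genes and 1 of 3 higher genes held the NRF1 motif. The ETS motif was in 0 of 7 lower and 1 of 3 higher genes, and the YY1 motif in 1 of 7 and 1 of 3. The 100 bases before the start are shown for the most clearly lowered gene, Atp5g1 (chr11:96075632-96075731, minus strand), for the lower gene Ndufa8 (chr2:36049339-36049438, minus strand) and for the higher gene Uqcrh (chr4:116075071-116075170, minus strand); capitals mark the NRF1 match in Ndufa8 and the ETS match, on the opposite strand, in Uqcrh, and none of these motifs was found in the Atp5g1 window.
Atp5g1: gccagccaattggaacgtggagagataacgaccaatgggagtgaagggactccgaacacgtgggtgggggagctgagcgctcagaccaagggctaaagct
Ndufa8: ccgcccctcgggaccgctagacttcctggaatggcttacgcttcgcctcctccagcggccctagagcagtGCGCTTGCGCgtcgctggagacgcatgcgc
Uqcrh: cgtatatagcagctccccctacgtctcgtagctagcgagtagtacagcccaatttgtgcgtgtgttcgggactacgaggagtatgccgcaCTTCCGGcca

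Genes that feed or build the chain were counted from lists, beside the 18.6% higher and 17.2% lower among all genes. The 22 genes listed for the tricarboxylic acid cycle include pyruvate dehydrogenase genes such as Dlat, pyruvate carboxylase (Pcx) and cytosolic enzymes such as Aco1. Of the 22, 11 fell and 11 were not called (median log2 fold change -0.28), and 2 were higher at an unadjusted edgeR p under 0.05. Idh3a, the catalytic subunit of isocitrate dehydrogenase, was lower at -0.56, and Pcx at -1.25. Of 77 mitochondrial ribosomal protein genes, which translate the mitochondrial messages, 19 fell and 58 were not called (median -0.15; 1 was higher at an unadjusted p under 0.05), and 34 fell without fibrosis 4 and 5. Of 30 protein import genes 8 fell, including Tomm40, the pore of the outer membrane, at -0.55, and 1 rose. Of 13 ubiquinone synthesis genes 5 fell and 1 rose, and of 40 assembly factors outside the name rule 9 fell and 5 rose. Of 20 glycolysis genes 5 rose, including Aldoc at 1.22, and 3 fell, including Hk1 at -1.09 and Pfkm at -1.95. Without fibrosis 4 and 5, 18.4% of all genes were called higher and 18.8% lower. Higher and lower calls were then 0 and 14 for the tricarboxylic acid cycle and 1 and 11 for protein import. They were 2 and 5 for ubiquinone synthesis, 1 and 7 for the assembly factors, and 7 and 4 for glycolysis.

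Genes that act on the mitochondrial genome and its RNA were mixed in direction. Of 14 mitochondrial DNA maintenance genes 4 rose and 2 fell with all libraries, and 2 rose and 1 fell without fibrosis 4 and 5. The replicative helicase Twnk fell by 0.42 on the log2 scale (edgeR adjusted p = 0.00144), also without those libraries. The replicative polymerase Polg, also named after its values were seen, fell by 0.34 (adjusted p = 0.0231) and lost its call without them (-0.18, adjusted p = 0.056). Tfam, which packages mitochondrial DNA and acts in its transcription, rose by 0.30 ± 0.078 on the log2 scale (SE, edgeR adjusted p = 0.00899). Its call was lost with library size alone and with no filter on low counts (adjusted p up to 0.168). The polymerase Polrmt was not called (-0.13, adjusted p = 0.458). Of 10 mitochondrial transcription genes 2 rose and 1, Tfb1m, fell. Of 18 genes for mitochondrial RNA processing and stability 1 rose and 5 fell, including Lrpprc, which stabilises mitochondrial messenger RNA, at -0.24 (adjusted p = 0.0356). Without fibrosis 4 and 5, Lrpprc was not called (-0.17, adjusted p = 0.119).

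Of 13 biogenesis regulators 3 rose and 1 fell. The coactivator Ppargc1a was low and higher in fibrosis (1.86 against 0.615 CPM, log2 fold change 1.59, edgeR adjusted p = 0.00201), Esrra rose by 0.28 and Sirt1 by 0.44, and the coactivator Pprc1 fell by 0.56. The factors Nrf1 (-0.20), Gabpa (0.15) and Myc (-0.19) and the coactivator Ppargc1b (-0.45) were not called.

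Genes of other cell types and states were also counted from lists. Among all genes 18.6% were called higher and 17.2% lower, and 18.4% and 18.8% without fibrosis 4 and 5. All 20 proliferation genes fell, with summed levels of 1566 to 2432 CPM in fibrosis, against 4359 to 5639 CPM in control, and without overlap. Of 10 dendritic cell genes 5 rose with all libraries and 5 without fibrosis 4 and 5, including Flt3 at 1.22 (edgeR adjusted p = 9.37e-06) and Xcr1 at 1.43, with sums of 330 to 448 CPM in fibrosis, against 235 to 270 CPM in control, and without overlap. Of 8 NK cell genes 3 rose, with overlapping sums of 75.1 to 158 CPM against 68.1 to 118 CPM. Of 10 T cell genes 2 rose, a share near that of all genes, with overlapping sums of 91.6 to 169 CPM against 79.8 to 116 CPM. Of 7 plasma cell genes 1 rose and 1 fell, and of 4 stroma and endothelium genes 1 rose. Of 19 erythroid genes 14 fell, with sums of 1252 to 3544 CPM in 4 fibrosis libraries, 8509 CPM in fibrosis 4, and 5511 to 8611 CPM in control. All 9 tested platelet and megakaryocyte genes rose, with sums of 310 to 1296 CPM against 188 to 231 CPM, highest in fibrosis 4 and 5. None of 13 macrophage and monocyte genes and none of 11 neutrophil genes was called by edgeR with all libraries, and 0 and 2 were higher at an unadjusted p under 0.05. DESeq2 called none of either list, and limma voom called 6 macrophage genes and 1 neutrophil gene lower. Both sums were highest in fibrosis 4 and 5, and without those libraries 10 of the 13 macrophage genes fell. Of 83 cytosolic ribosomal protein genes 66 rose and 1 fell, with the highest sums again in fibrosis 4 and 5. The part of these cell types and states in the respiratory chain results was not tested.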

How the data were processed

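The authors deposited a table of raw read counts per gene and a separate table of FPKM values per gene, each for 10 libraries. The build is GRCm38 (mm10), per the submitters' processing notes. The aligner, counting program and strand setting were not given in the sources used here. Counts were fitted with edgeR 4.0.16 in R 4.3.3 (TMM scaling, default expression filter, robust quasi-likelihood F test, Benjamini-Hochberg over 14283 genes, called at an adjusted p under 0.05). The script was tested on simulated data. The deposited FPKM served for levels per length. CPM uses scaled library sizes, except CPM per kilobase, which uses total counts without scaling. Alternatives used limma 3.58.1, DESeq2 1.42.0, other scalings and filters, the FPKM, and left-out libraries. Members and lists were chosen with earlier results of these data known. Named were all mitochondrial, complex II and complex III members, called members (at most 8 per class, otherwise the 4 smallest p per direction), fixed paralog sets and regulators, and up to 3 genes per list. Coding lengths and the copies of mitochondrial genes came from GENCODE vM21. Depth was 13439100 to 17954551 counts. One B cell marker is not reported here.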

Additional observations from a re-analysis of the deposited data

Results flagged for a closer look

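In 5 of 94 groups of 5 libraries, the lowest library lay further from its neighbours than Dixon's 95% critical value of 0.71 allows; chance gives about 1 in 20 such groups. In 4 of the 5 the library was control 3. It had 99.2 CPM of Ndufa10 (next lowest control 115), 276 CPM of Cox6a1 (next 346), 105 CPM of Cox6b1 (next 121) and 19.6 CPM of Cox6b2 (next 24.7). The other was control 5, with 1.15 CPM of mt-Nd4l (next 1.47).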

How the results depend on the processing

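The mitochondrial genes gave 10 to 12 higher calls and none lower under each alternative except a correction for library trends in GC and gene length, which left 7 higher calls and a median log2 fold change of 0.27. Nuclear lower calls were 8 with all libraries, 26 with library size alone, 25 with limma voom quality weights, 19 with the GC and length correction and 31 without fibrosis 4 and 5 (23.1%, 20.0%, 19.9% and 18.8% of all genes were lower there). Leaving out 1 library at a time gave 8 to 18 lower calls, the 18 without fibrosis 4, and 2 to 7 higher calls, the 7 without fibrosis 3. Nuclear higher calls were 7 with no filter and 1 at an adjusted p under 0.01, where 1547 of all genes were higher. Library size alone moved the median of all genes from 0.05 to -0.06. Without fibrosis 4 and 5, Uqcrq turned to -0.28 and Cox6b1 to -0.27. Deviations of same-numbered libraries correlated at 0.11, -0.13, 0.42, 0.25 and -0.25 for numbers 1 to 5. Libraries 1, 3 and 4 correlated best with their own number and 2 and 5 did not, so the numbers were not taken as pairs; a replicate block gave 11 mitochondrial higher calls and 12 nuclear lower calls. Causes were not tested.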
